A study of Rattus norvegicus with 18 samples.

Results

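Expression of 10 genes that mark astrocytes and their reactive state was examined in rat cortical neuroglial cultures under glutamate excitotoxicity. The genes were Gfap, Vim, Nes, S100b, Aldh1l1, Aldoc, Aqp4, Sox9, Lcn2 and Serpina3n, found by name among the 31463 rows of each count table. All 10 had a row, and 9 passed the filter on low counts, the exception being Serpina3n. The cultures are primary mixed cultures of neurons and glial cells from rat brain cortex, used on day 10 in vitro. Per the study's methods, glutamate was washed out after the exposure, and RNA was collected after 4 h in culture medium. There were 18 libraries, 3 in each of 6 groups.

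Control cultures received no glutamate, and Glutamate cultures were exposed to 100 µM glutamate, which per the study's methods was applied together with glycine. In the Memantine group the NMDA receptor blocker memantine was used at 100 µM as the positive control. The label of this group mentions memantine alone, but the design text lists it as a control of the glutamate model. Glutamate_vesicles, Glutamate_secret and Glutamate_BPC cultures received secreted material of glial progenitor cells the day before glutamate. The material came from human cells, which per the methods had been differentiated from induced pluripotent stem cells of 1 donor. The vesicle group is named by its label, whereas the labels do not settle which of Glutamate_secret and Glutamate_BPC was the fraction of 3 to 100 kDa proteins and which the total secretome. All groups except Control therefore share glutamate exposure, and no group received a preparation without glutamate. The labels do not say whether the 3 libraries of a group came from separate cultures, so that p-values measure only the spread between these libraries. The paper describes repeats on cultures of unrelated cells and used batch-corrected counts to cluster libraries. It does not say how replicate numbers relate to cultures or batches.

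Astrocytes support neurons by taking up glutamate and potassium, supplying metabolites and moving water through aquaporin channels. After injury they become reactive, a state in which intermediate filaments of the cytoskeleton (the products of Gfap, Vim and Nes) and some secreted proteins are made in larger amounts. Nestin and vimentin are also filaments of neural progenitor cells, and vimentin is made by many other cell types. S100b and Sox9 are transcribed in oligodendrocyte precursors and neural progenitors as well, so that none of these genes belongs to astrocytes exclusively.

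Library totals ranged from 8409574 to 17206354 counts, and the libraries differed in ribosomal RNA, which made up 3.04% to 43.0% of counts. Control 1 was at the extreme on both measures, with the fewest counts and the most ribosomal RNA. Levels are counts per 1000000 counts of the scaled library size (CPM). They are compared between libraries and not between genes, because transcript lengths were not used here. In such bulk cultures, a change in the number of cells of a type and a change in RNA per cell cannot be told apart. The cultures held astrocyte RNA in every library, since 17 of 18 further astrocyte markers passed the filter and their summed level was between 5742 and 24395 CPM. Gjb6, a gap junction gene of mature astrocytes, was the marker that did not pass, with 26 counts over all libraries.

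The 250 bases upstream of the transcription start are shown for the members whose levels lay above Control without overlap in at least 1 glutamate-exposed group, Nes, Vim, Gfap and Lcn2. They are RefSeq sequences of the GRCr8 assembly, another build than the rn6 used by the authors, and run 5′ to 3′ on the strand of the gene. Nes lies at chr2:175736338-175736587 on the plus strand, Vim at chr17:81577011-81577260 on the plus strand, Gfap at chr10:88361662-88361911 on the minus strand and Lcn2 at chr3:36081781-36082030 on the minus strand. Capitals mark matches to any of 4 motifs on either strand.
Nes: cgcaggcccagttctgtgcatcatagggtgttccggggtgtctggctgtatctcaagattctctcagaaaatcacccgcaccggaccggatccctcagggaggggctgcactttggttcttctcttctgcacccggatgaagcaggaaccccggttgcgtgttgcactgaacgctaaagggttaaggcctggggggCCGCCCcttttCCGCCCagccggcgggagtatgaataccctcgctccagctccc
Vim: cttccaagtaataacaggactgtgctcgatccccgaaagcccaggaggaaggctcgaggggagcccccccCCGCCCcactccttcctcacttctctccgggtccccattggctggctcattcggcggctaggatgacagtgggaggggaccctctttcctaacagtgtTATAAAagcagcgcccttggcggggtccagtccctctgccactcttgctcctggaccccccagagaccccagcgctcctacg
Gfap: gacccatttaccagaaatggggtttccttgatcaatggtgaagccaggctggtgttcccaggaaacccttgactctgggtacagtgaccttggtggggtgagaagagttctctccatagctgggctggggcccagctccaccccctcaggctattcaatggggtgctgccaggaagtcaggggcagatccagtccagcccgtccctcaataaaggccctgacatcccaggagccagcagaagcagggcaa
Lcn2: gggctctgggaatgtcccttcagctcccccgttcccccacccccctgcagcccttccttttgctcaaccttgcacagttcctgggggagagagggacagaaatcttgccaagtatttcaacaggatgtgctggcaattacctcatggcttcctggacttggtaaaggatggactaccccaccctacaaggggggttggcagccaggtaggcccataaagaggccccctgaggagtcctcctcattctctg
The motifs were the TATA box (TATAAA), the GC box (GGGCGG), the AP-1 site (TGANTCA) and the STAT site (TTCNNNGAA). Nes had 2 GC boxes, starting at positions -54 and -43 from the start. Vim had a TATA box at -82 and a GC box at -180, whereas Gfap and Lcn2 held none of the 4 motifs in this window. Among 33469 such windows of rat genes, 30.5% held a GC box, 12.9% a TATA box, 7.67% a STAT site and 6.34% an AP-1 site. A match is only a match of letters. In all, 9 of the 10 members had a sequence in the table, and Sox9 was the one without.

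Nes, which encodes the filament protein nestin, was higher in all glutamate-exposed libraries than in any Control library. Its level was 259.8, 368 and 359 CPM in the 3 Control libraries and 885, 778 and 889 CPM in the Glutamate libraries. Memantine libraries held 669, 431 and 603 CPM, above all Control and below all Glutamate libraries. Glutamate_vesicles libraries reached 1277, 737 and 1488 CPM. The 3 Glutamate_secret libraries were at 751, 844 and 543 CPM, and those of Glutamate_BPC at 747, 849.6 and 709.6 CPM. Every one of the 15 glutamate-exposed libraries was thus above every Control library, and the lowest of them held 431 CPM. Of all genes tested, 0.201% showed this pattern of higher levels and 0.431% the opposite one.

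On the log2 scale the difference of Nes from Control was 1.37 ± 0.37 (SE) in Glutamate, with an adjusted p of 0.282 in the quasi-likelihood test of edgeR (unadjusted p = 0.00183). It was 0.79 ± 0.36 in Memantine (adjusted p = 1, unadjusted p = 0.0454). The largest of the 5 estimates was that of the vesicle group, 1.83 ± 0.37, with an adjusted p of 0.161 (unadjusted p = 0.000162). Glutamate_secret and Glutamate_BPC differed from Control by 1.11 ± 0.36 (adjusted p = 0.236) and 1.22 ± 0.36 (adjusted p = 0.295). These 5 comparisons share the same Control libraries. None passed the adjusted threshold of 0.05 in that test. DESeq2 called Nes in 4 of them, Memantine being the exception, with adjusted p-values of 0.000939 for Glutamate, 1.35e-07 for Glutamate_vesicles, 0.00462 for Glutamate_secret and 0.00478 for Glutamate_BPC. For Glutamate_vesicles and Control the replicate numbers met a rule for pairing, correlations above 0.1 in these same data (lowest 0.208). With the number as a block in edgeR, Nes rose by 1.81 on the log2 scale in that comparison (adjusted p = 0.0245). The block was fitted over all 18 libraries, also where the numbers failed the rule, as for Glutamate with Control (lowest -0.117).

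Against Glutamate, Nes was lower in Memantine by a log2 difference of -0.58 ± 0.36, and the 3 libraries of each group did not overlap, which held for 2.86% of all genes. That difference did not pass the test (adjusted p = 0.999). Glutamate_vesicles was higher by 0.46 ± 0.36 (adjusted p = 1), with overlap. Among the 3 preparations, the F test for any difference gave an unadjusted p of 0.126 for Nes in edgeR. Relative to the sum of the other astrocyte markers, the log2 ratio of Nes counts was -5.58 to -4.58 in Control, -4.51 to -3.70 in Glutamate and -3.87 to -2.47 in Glutamate_vesicles, again without overlap with Control. The ratio overlapped with Control in Memantine, Glutamate_secret and Glutamate_BPC. Apoe and Cst3 gave the most counts of this marker sum, 1155717 and 566001 over all libraries, and the ratio is not a level per astrocyte. The share of all genes that lay apart on it was not computed.

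**Figure D1:**
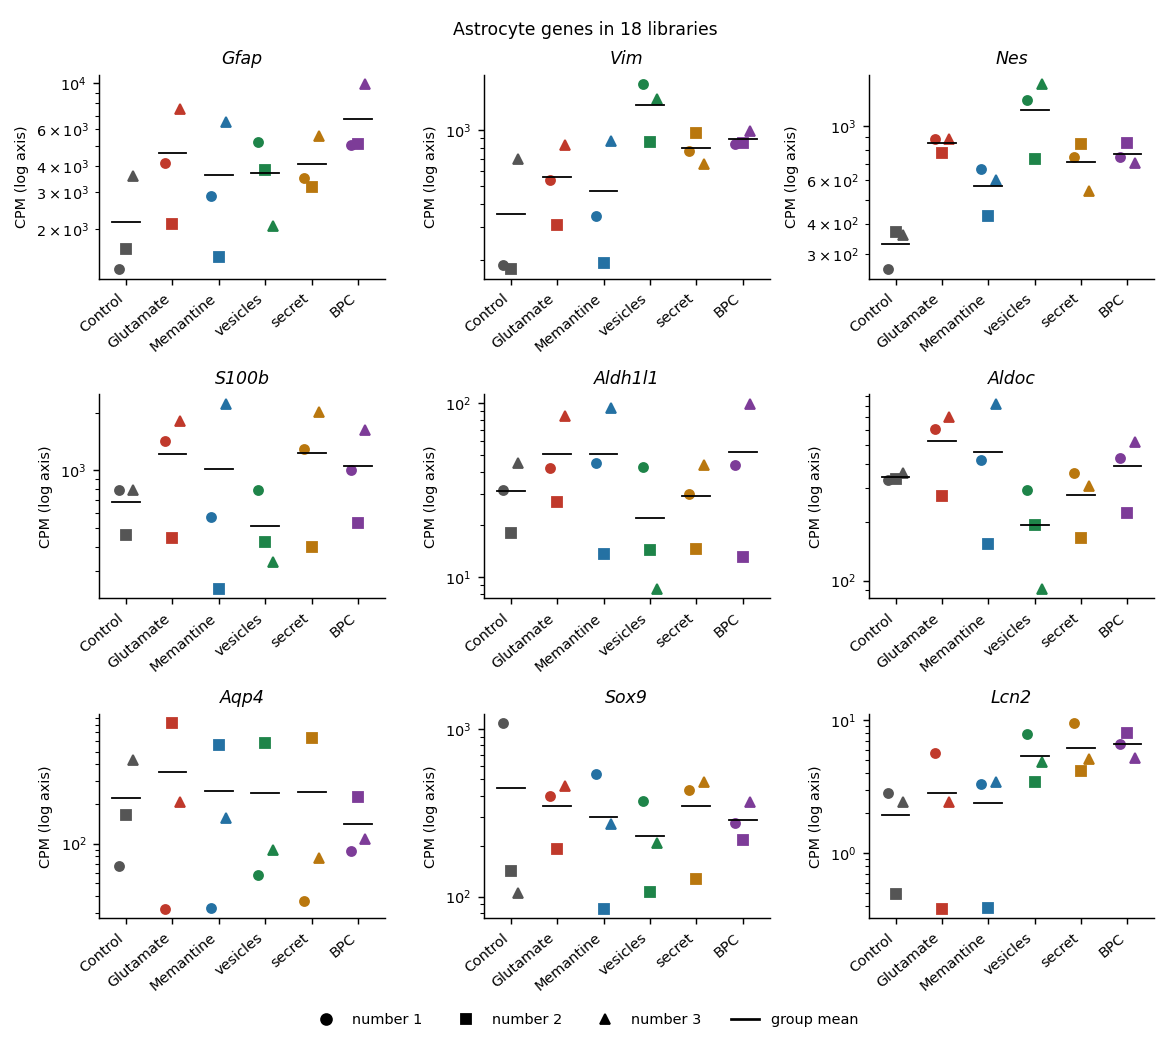
Levels of the 9 tested genes in CPM (log axis) in each of 18 libraries, by treatment group. Symbols give the replicate number, horizontal lines the group mean, and the labels vesicles, secret and BPC stand for Glutamate_vesicles, Glutamate_secret and Glutamate_BPC. For Nes, the 15 glutamate-exposed libraries (431 CPM and above) lie over the 3 Control libraries (368 CPM and below). For Aqp4, the library numbered 1 is the lowest in each group.

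Vim, the gene of vimentin, was high in the cultures that had received secreted material. Control libraries held 188, 178 and 694 CPM and Glutamate libraries 537, 309 and 824 CPM. In Memantine the values were 347, 193 and 872 CPM. In each of these 3 groups the library with number 3 was the highest, and their ranges overlapped. Levels were 1762, 854 and 1456 CPM with vesicles, 767, 965 and 656 CPM in Glutamate_secret and 837, 846 and 989 CPM in Glutamate_BPC. The 9 libraries with a preparation ranged from 656 to 1762 CPM (median 854 CPM), and the 9 without from 178 to 872 CPM (median 347 CPM).

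Against Control, the log2 difference of Vim was 1.94 ± 0.63 (SE) in Glutamate_vesicles (adjusted p = 0.233) and 1.33 ± 0.62 in Glutamate_BPC (adjusted p = 0.432). Glutamate_secret differed by 1.17 ± 0.62 (adjusted p = 0.492). With the replicate block, Vim rose by 2.14 in Glutamate_vesicles against Control (adjusted p = 0.0311), and DESeq2 called it in that comparison too (adjusted p = 0.0292). Without Control 3, the high Control library, the quasi-likelihood estimate was 2.89 for vesicles (adjusted p = 0.156), 2.12 for Glutamate_secret (adjusted p = 0.253) and 2.29 for Glutamate_BPC (adjusted p = 0.273). Against Glutamate, the vesicle group was higher by 1.29 ± 0.62 (adjusted p = 1, unadjusted p = 0.0541), and its libraries did not overlap with those of Glutamate. Libraries of Glutamate_BPC also lay above those of Glutamate, by 0.68 ± 0.61 on the log2 scale (adjusted p = 1). Groups lay apart from Glutamate for 6.27% of all genes with vesicles and for 7.13% in Glutamate_BPC. The Glutamate and Memantine groups did not differ in Vim beyond their spread (log2 difference -0.24 ± 0.61, adjusted p = 0.999).

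Gfap encodes the filament protein by which astrocytes are commonly stained. Its level was 1275, 1590.3 and 3603 CPM in Control and 4142, 2115 and 7559 CPM in Glutamate. Memantine libraries held 2876, 1467 and 6530.2 CPM. As for Vim, number 3 gave the highest library in each of these groups, and the spread within a group was large. The preparations gave 5216, 3812 and 2066 CPM with vesicles, 3498, 3188 and 5589.7 CPM in Glutamate_secret and 5056, 5105 and 9940.3 CPM in Glutamate_BPC. Only in Glutamate_BPC did all libraries exceed all Control libraries, and these groups lay apart for 24.9% of all genes. The log2 difference was 1.64 ± 0.68 (SE) there (adjusted p = 0.377, unadjusted p = 0.0294), and 1.09 ± 0.67 in Glutamate against Control (adjusted p = 0.825). Leaving out Glutamate 3 lowered the latter to 0.54, and leaving out Control 3 raised it to 1.69. For the other groups against Control the estimates were between 0.75 and 0.92, and against Glutamate all 4 were between -0.35 and 0.54.

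S100b, Aldh1l1 and Aldoc are genes of mature astrocytes. They encode a calcium-binding protein, a folate-metabolising enzyme and a glycolytic aldolase. Aldoc was at 332, 334 and 359 CPM in Control and at 609, 274 and 699 CPM in Glutamate. With vesicles it was at 294, 194 and 90.4 CPM, below every Control library and with an overlap with Glutamate 2. Vesicle libraries lay apart from Control for 19.5% of all genes. The Memantine libraries spread most, with 419, 154 and 822 CPM. In Glutamate_secret the values were 359.9, 167 and 309 CPM, and in Glutamate_BPC 431, 223 and 524 CPM. The log2 difference of Glutamate_vesicles from Glutamate was -1.45 ± 0.59 (SE), with an unadjusted p of 0.0268 and an adjusted p of 1 by edgeR. From Control it was -0.82 ± 0.59 (adjusted p = 0.686). Against the summed other astrocyte markers, the log2 ratio of Aldoc was -6.51 to -5.58 with vesicles, -5.23 to -4.72 in Control and -5.21 to -4.86 in Glutamate, so that the vesicle libraries were below both groups on this measure. Those of Glutamate_secret, at -6.19 to -5.59, were likewise below both. The limits of this ratio named for Nes hold here too, and no share of all genes was computed for it.

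S100b and Aldh1l1 had estimates of the same direction in the vesicle group. S100b was at 787, 424 and 333 CPM there, against 1422, 441 and 1805 CPM in Glutamate, a log2 difference of -1.25 ± 0.79 (adjusted p = 1). Control libraries held 795, 463 and 788 CPM of S100b. Aldh1l1 was at 42.7, 14.2 and 8.51 CPM with vesicles and at 42.4, 26.8 and 84.3 CPM in Glutamate, a log2 difference of -1.24 ± 0.80 (adjusted p = 1). Its Control libraries were at 31.4, 17.8 and 44.9 CPM. The estimate of Aldh1l1 was -0.67 without Glutamate 3 and -2.17 without Glutamate_vesicles 1. For S100b it was -0.86 and -1.69 without the same libraries, and -0.59 with the share of ribosomal RNA as a covariate. Neither gene passed the test at an unadjusted p of 0.05 in any comparison, and the vesicle libraries overlapped with both Control and Glutamate. Over the 18 libraries the 3 genes ran together, with a Pearson r of log2 CPM of 0.906 between Aldh1l1 and Aldoc, 0.856 between S100b and Aldh1l1 and 0.827 between S100b and Aldoc. With the means of the replicate numbers removed the values were 0.904, 0.722 and 0.8. These libraries share groups, numbers and depth, and the correlations are given as a description.

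Aqp4, the water channel of astrocyte endfeet, and Sox9, a transcription factor of astrocytes and their precursors, varied with replicate number more than with treatment. Aqp4 was between 31.9 and 88.6 CPM in the 6 libraries numbered 1, between 166 and 820.1 CPM in those numbered 2 and between 77.5 and 430.3 CPM in those numbered 3. The library numbered 1 was the lowest in all 6 groups and the one numbered 2 the highest in 5 of them, as in Glutamate (31.9, 820.1 and 207 CPM). The log2 difference of Glutamate_BPC from Glutamate was -1.32 ± 1.28 (adjusted p = 1), and it ranged from -1.86 without Glutamate 1 to 0.24 without Glutamate 2. Sox9 was highest in Control 1, at 1078 CPM, whereas the other Control libraries held 143 and 105 CPM. Its Glutamate libraries were at 395, 193 and 459 CPM, and the remaining groups ranged from 84.3 to 537 CPM. Log2 differences of Sox9 from Control were between -0.94 and -0.34, and the standard error exceeded the difference in 4 of the 5. The high Control 1 set their sign, as the mean of each treated group, 229.8 to 349 CPM, was above both other Control libraries. With the replicate block the estimate against Control was 0.07 for Glutamate. It was -0.46 for Memantine, -0.68 for vesicles, -0.06 for Glutamate_secret and -0.09 for Glutamate_BPC. In Glutamate and Glutamate_BPC, 2 of the 3 libraries were above the Control library of the same number. In Memantine, Glutamate_vesicles and Glutamate_secret 1 of the 3 was. Across the 18 libraries, log2 CPM of Sox9 had a Pearson r of 0.926 with the log2 share of ribosomal RNA (0.85 within replicate numbers), and that of Aqp4 an r of -0.70. The values were 0.70 for S100b, 0.61 for Aldh1l1 and 0.56 for Aldoc, and 0.36 for Lcn2 and 0.26 for Gfap. For Nes the value was -0.15 and for Vim -0.06. The part of ribosomal RNA in these levels was not tested beyond the covariate fit.

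The share of the variance of log2 CPM that lay between the 6 group means was 82% for Nes, 59.8% for Vim, 45% for Lcn2, 39.8% for Gfap and 36.3% for Aldoc. It was 20.7% for Aldh1l1, 18.6% for S100b, 5.87% for Sox9 and 1.65% for Aqp4. Between the means of the 3 replicate numbers the share ran from 0.938% for Nes to 74.1% for Aqp4. It was 56.8% for Sox9, 52.1% for S100b and 45.8% for Aldh1l1, each above the share by group of that gene. For the median gene the shares by group and by number were 22.4% and 42.2%. Nes, Vim, Lcn2, Gfap and Aldoc were thus above the median gene in the share by group, and the other 4 members below it.

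**Figure D2:**
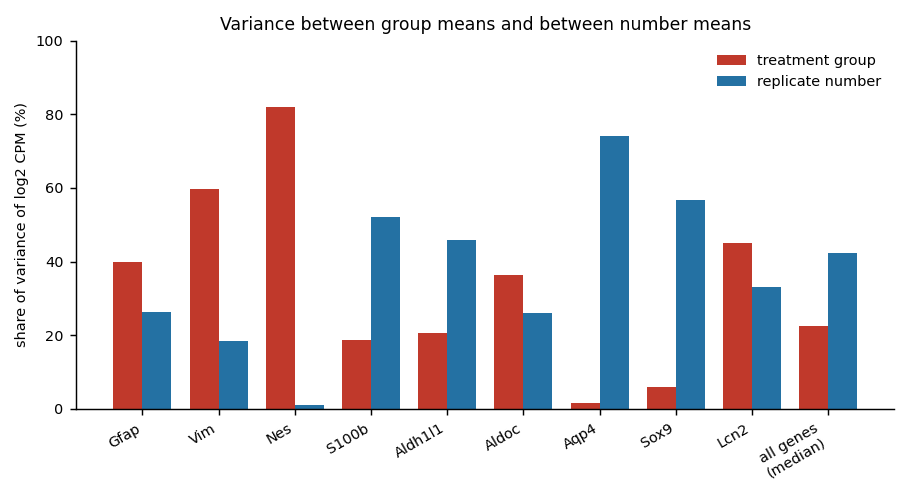
Share of the variance of log2 CPM over 18 libraries (%) that lies between the 6 treatment group means (red) and between the 3 replicate number means (blue), for 9 genes and for the median of all 14398 tested genes. Nes has 82% by group and 0.938% by number, and Aqp4 has 1.65% by group and 74.1% by number.

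Lcn2 encodes lipocalin 2, a secreted iron-siderophore carrier that reactive astrocytes make in inflammation. Its counts were low, from 6 to 140 per library, so that its levels carry more counting error than those of the other members. Control libraries held 2.86, 0.491 and 2.42 CPM, Glutamate libraries 5.68, 0.381 and 2.43 CPM and Memantine libraries 3.33, 0.389 and 3.45 CPM. In all 3 groups the library numbered 2 was the lowest. With the preparations, the values were 7.88, 3.45 and 4.81 CPM in Glutamate_vesicles, 9.45, 4.16 and 5.07 CPM in Glutamate_secret and 6.61, 8.07 and 5.21 CPM in Glutamate_BPC. The lowest of these 9 libraries was above the highest Control library, and the Control levels rest on 10, 10 and 45 counts. Vesicle libraries lay apart from Control, in either direction, for 19.5% of all genes, Glutamate_secret libraries for 15.9% and Glutamate_BPC libraries for 24.9%. The share of all genes with all 9 libraries above Control was not computed. The ranges of the 9 libraries with and the 9 without a preparation overlapped (3.45 to 9.45 CPM and 0.381 to 5.68 CPM).

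Log2 differences of Lcn2 from Control were 1.53 ± 0.89 (SE) with vesicles, 1.74 ± 0.89 in Glutamate_secret and 1.84 ± 0.89 in Glutamate_BPC. The adjusted p-values of edgeR were 0.565, 0.482 and 0.457, and the lowest unadjusted one without the replicate block was 0.0566. Glutamate alone differed from Control by 0.59 ± 0.89 (adjusted p = 0.999). Against Glutamate the estimates were 0.94, 1.15 and 1.25 for the same preparations, in the order above, with adjusted p-values of 1. These estimates rest partly on the library with 6 counts. Without Glutamate 2 the last 2 were 0.61 and 0.71, and without Glutamate 1 they were 2.16 and 2.26. The replicate numbers met the pairing rule in these 2 comparisons and in Glutamate_vesicles against Control. With the replicate block, Lcn2 had lower unadjusted p-values there in edgeR. They were 0.0228 for vesicles against Control (log2 difference 1.67), 0.0378 for Glutamate_secret against Glutamate (1.49) and 0.0137 for Glutamate_BPC against Glutamate (1.87). The adjusted p-values of edgeR there were 0.167, 0.938 and 0.966, and none passed the threshold.

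Serpina3n, a serine protease inhibitor and a usual marker of reactive astrocytes, was listed at 0 counts in all 18 libraries. A count of 0 allows a level of up to 0.174 to 0.357 CPM of the unscaled total, depending on the library, for counting error alone. Its near relatives Serpina3c and Serpina3m were also at 0 in every library, and Serpina3a held 240 counts in all and at most 45 in a library. The genes of this family are similar in sequence and reads can be divided among them. Of all rows, 33.3% were at 0 in every library. No statement on the gene's expression is therefore made.

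Counted over the 9 tested members, Glutamate and Control differed in no member at an adjusted p below 0.05 by the quasi-likelihood test of edgeR, where 0% of all genes were called. At an unadjusted p below 0.05 Nes was counted, against 8.11% of all genes, and DESeq2 called Nes, against 1.61% of all genes. The median log2 difference of the members was 0.67, and that of all genes 0.08, with 8 of 9 members positive. The groups lay apart for 1 member, Nes, against 12.2% of all genes.

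The other groups were set against Glutamate, which all 4 comparisons share. No member was called for Memantine, Glutamate_vesicles, Glutamate_secret or Glutamate_BPC by edgeR, where 0% of all genes were called in each, and DESeq2 called no member either, against 0.0139%, 0.0209%, 0% and 0.00696% of all genes. At an unadjusted p below 0.05 the counts were 0 for Memantine (5.08% of all genes), 1 for Glutamate_vesicles, which was Aldoc (1.08%), 0 for Glutamate_secret (0.681%) and 0 for Glutamate_BPC (1.07%). Groups lay apart for Nes in Memantine (2.86% of all genes), for Vim in Glutamate_vesicles (6.27%), for no member in Glutamate_secret (3.41%) and for Vim in Glutamate_BPC (7.13%). Median log2 differences of the members were -0.24 with Memantine, -0.53 with vesicles, -0.17 in Glutamate_secret and -0.15 in Glutamate_BPC, and those of all genes lay between -0.05 and -0.01. All 9 members were lower in Memantine than in Glutamate in direction, and 6 of 9 with vesicles.

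Set against Control, the 4 treated groups again gave no member at an adjusted p below 0.05 by edgeR. Of all genes, 0% were called for Memantine, Glutamate_secret and Glutamate_BPC and 0.0139% for Glutamate_vesicles. With the replicate block, Nes and Vim were called higher in Glutamate_vesicles, where the share of all genes was 3.74%. At an unadjusted p below 0.05, Nes was counted in Memantine (1.12% of all genes), Nes and Vim in Glutamate_vesicles (11.6%), Nes in Glutamate_secret (11.8%) and Nes, Vim and Gfap in Glutamate_BPC (11.3%). By DESeq2 the counts were 0, 2, 1 and 1 in the same order, against 0%, 3.65%, 3.18% and 1.85% of all genes. Groups lay apart for 1, 4, 2 and 4 members, against 2.35%, 19.5%, 15.9% and 24.9% of all genes. The 4 members with vesicles were Nes, Vim and Lcn2, which were higher, and Aldoc, which was lower. An F test over all groups called no member by edgeR, against 0.00695% of all genes. At an unadjusted p below 0.05 it counted 1 member, Nes, against 7.75% of all genes. The unadjusted p-values of this edgeR test were 0.0044 for Nes and 0.0629 for Vim. In the F test among the 3 preparations no member reached an unadjusted p of 0.05, against 0.382% of all genes.

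**Figure D3:**
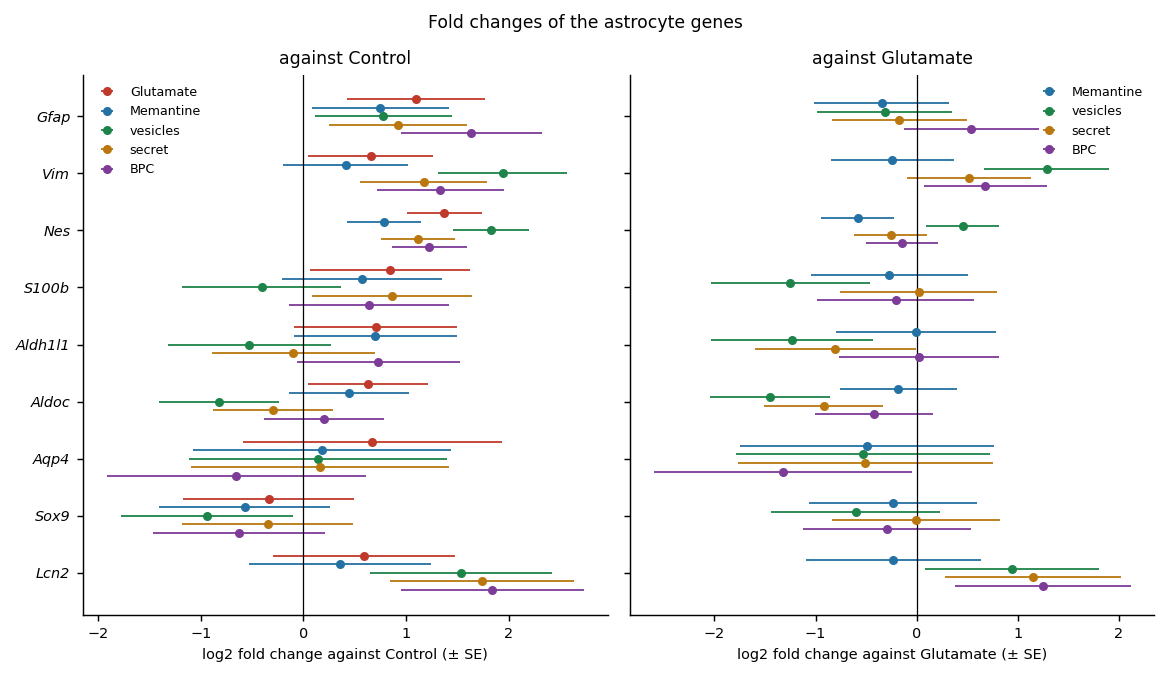
Log2 fold changes of the 9 tested genes with their standard errors, against Control (left) and against Glutamate (right), by treated group. Each point is the estimate of the quasi-likelihood fit over 18 libraries. Nes is positive against Control in all 5 groups (0.79 to 1.83), and Aldoc, S100b and Aldh1l1 are lowest with vesicles against Glutamate (-1.45 to -1.24).

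Most other genes of reactive astrocytes had estimates on the same side as the filaments. Of 10 tested genes that are shared by several kinds of injury, 9 were higher in Glutamate than in Control, with a median log2 difference of 1.32, and none was called. Timp1, a secreted inhibitor of metalloproteinases, was at 185 ± 204 CPM (SD, n = 3) in Glutamate and 37.7 ± 16 CPM in Control. With vesicles it was at 402 ± 260 CPM. Cd44, the hyaluronan receptor, was at 96.9 ± 44.0 CPM in Glutamate, 159 ± 82.6 CPM with vesicles and 23.6 ± 28.3 CPM in Control. In Glutamate_vesicles against Control the list had a median of 1.78 with 8 of 10 positive, none called without and 2 called higher with the replicate block, under which 3.74% of all genes were called.

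Genes reported for the astrocyte response to ischaemia had a median log2 difference of 1.49 in Glutamate and 1.89 in Glutamate_vesicles against Control, with 10 of 11 positive in each and none called. With the block, 2 of them were called higher with vesicles, beside the same 3.74% of all genes. Sphk1, a sphingosine kinase, was at 21.4 ± 26.5 CPM (SD, n = 3) in Glutamate, 32.4 ± 12.2 CPM with vesicles and 1.61 ± 1.08 CPM in Control. The cytokine gene Clcf1 was at 7.61 ± 2.20, 10.3 ± 5.17 and 1.35 ± 1.38 CPM in the same groups. For Glutamate_secret and Glutamate_BPC against Control the medians of this list were 1.77 and 1.63, and for Memantine 0.61. Glutamate lay apart from Control for 3 genes of the list that were higher and 1 that was lower, against 12.2% of all genes. The list of inflammatory reactive genes had smaller medians, 0.48 in Glutamate and 0.43 with vesicles, with 7 of 8 positive in both and none called in either. Genes of these lists are also used by microglia and fibroblasts.

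The other astrocyte markers had a smaller median than the shared-injury and ischaemia lists in Glutamate against Control, and a larger one than the inflammatory list. Their median log2 difference was 0.60 in Glutamate against Control, with 14 of 17 positive, and -0.48 in Glutamate_vesicles against Glutamate, with 14 of 17 negative, and none was called in either comparison. Against Glutamate the median was also negative in Memantine (-0.25, 15 of 17 negative), Glutamate_secret (-0.22, 12 of 17) and Glutamate_BPC (-0.26, 14 of 17), with none called. Neuronal markers were lower in all 12 genes in Glutamate against Control, with a median of -1.52, none called and 8 at an unadjusted p below 0.05 (8.11% of all genes). Tubb3, the neuronal tubulin, was at 174 ± 37.2 CPM (SD, n = 3) in Glutamate and 703 ± 228 CPM in Control. The summed level of the neuronal markers was 2134 to 2877 CPM in Control, 635 to 1218 CPM in Glutamate, 673 to 3481 CPM in Memantine and 524 to 1148 CPM in the 3 groups with a preparation. Glutamate and the groups with a preparation had neuronal sums below those of Control and higher Nes. Nes was above Control in every Memantine library as well. The part of cell composition in these differences was not tested. In Memantine all 12 neuronal genes had a higher estimate than in Glutamate (median 1.41, none called, 6 at an unadjusted p below 0.05, against 5.08% of all genes). Its libraries were split, with neuronal sums of 3481, 2378 and 673 CPM, beside Nes levels of 669, 431 and 603 CPM.

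Markers of other glial and of vascular cells were checked in the same way. Oligodendrocyte lineage markers summed to 556 to 952 CPM in Control and 1257 to 1316 CPM in Glutamate. With vesicles the range was 1315 to 1718 CPM, and 2 of the 10 genes were called higher against Control with the replicate block (3.74% of all genes). Some oligodendrocyte precursors also make Nes and Vim, and the part of these cells in the levels of both members was not tested. Microglial markers varied within groups, from 34.3 to 462 CPM in Memantine alone. Against Control, all 10 of them had a higher estimate in Glutamate (median log2 difference 1.03), Glutamate_BPC (1.62) and Glutamate_vesicles (0.38), as had 9 in Glutamate_secret (1.30), with none called. Their part in the levels of Lcn2 and the other reactive genes was not tested. Markers of fibroblasts and mural cells, which make vimentin, summed to 3.71 to 11.4 CPM in Control, 5.81 to 12.8 CPM in Glutamate and 13.0 to 19.1 CPM with vesicles, so that the vesicle libraries lay above both groups. Of the 8 genes of this list, Pdgfrb, Col1a1, Col1a2 and Col3a1 passed the filter, with 1553, 728, 563 and 183 counts over all libraries, whereas Acta2, Dcn, Lum and Rgs5 did not, with 55, 20, 12 and 3. In Glutamate_vesicles the tested genes were higher in 3 of 4 against Control (median log2 difference 1.43) and in 4 of 4 against Glutamate (0.83), with none called. With the replicate block, 1 of them, the collagen gene Col1a1, was called higher against Control (adjusted p = 0.0464), against 3.74% of all genes. The part of these cells in the level of Vim was not tested. Endothelial markers summed to at most 6.05 CPM.

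**Figure D4:**
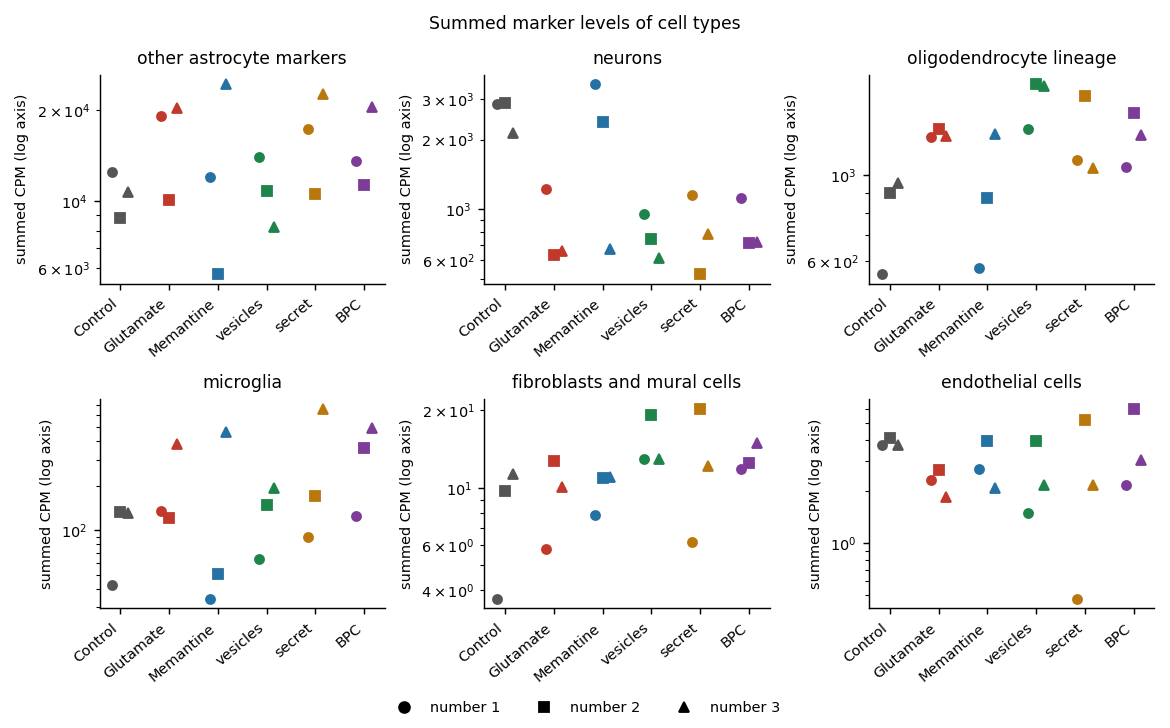
Summed CPM (log axis) of marker lists of 6 cell types in each of 18 libraries, by treatment group, with symbols for the replicate number. Neuronal sums are 2134 to 2877 CPM in Control and 635 to 1218 CPM in Glutamate, and those of fibroblasts and mural cells and of endothelial cells stay at or below 20.3 CPM.

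Between the members, the filament genes Vim and Nes had a Pearson r of 0.755 over the 18 libraries (0.802 with the means of the replicate numbers removed), Vim and Lcn2 one of 0.742, Gfap and S100b one of 0.722 and Gfap and Vim one of 0.707. Gfap and Nes had a lower value, 0.423. Aqp4 and Sox9 had the lowest, -0.773, which was -0.382 within numbers. Among the 11871 genes whose mean log2 CPM was 1 or more, the 5 most like Gfap were Slc25a18, a mitochondrial glutamate carrier (r = 0.934), Lgi4 (0.927), Pea15 (0.922), Cd82 (0.915) and Ccnd3 (0.914). The 5 most like Lcn2 were Irx1 (0.931), Timp1 (0.924), Pdlim7 (0.919), Ier5l (0.918) and Pdlim1 (0.914). The median r over all these genes was 0.04 for Gfap and -0.02 for Lcn2. The libraries behind these values share treatment groups, numbers and depth.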

How the data were processed

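Expected counts per gene, which the authors deposited for each of the 18 libraries, are estimated counts that need not be whole numbers and are not scaled between libraries. Per the methods, the authors used Trimmomatic and Cutadapt for trimming, Salmon for quantification against Ensembl transcripts (build rn6) and tximport for sums per gene. The labels also name STAR. Paper and labels differ on kit and instrument, and a strand setting for the counting is not stated, so that reads of overlapping genes cannot be told apart.

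Counts were rounded and tested with edgeR 4.0.16 in R 4.3.3, after filterByExpr (minimum count 10, minimum total 15), which kept 14398 genes, and TMM scaling. One mean per group was fitted over all libraries with the quasi-likelihood test, two-sided, and Benjamini-Hochberg adjustment over all genes tested. Genes were called at an adjusted p below 0.05. CPM used TMM-scaled library sizes, and log2 CPM a prior count of 2. The design had been written for counts, and the rounded expected counts were treated alike. The script was tested on simulated data with 200 changed genes. The rule for named values took the 10 members in every library and gave fold changes, errors and p-values where an unadjusted p was below 0.05 or a log2 difference at least 1 in size; further ones are given for context. From each list the 2 genes with the smallest p could be named, together with the 5 genes most like Gfap and Lcn2. Members and gene lists were chosen with earlier results of these data known. Ugt1a1 and Cldn5 of the lists were not analysed here.

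Replicate numbers of the labels were checked for pairing by the correlation of deviations from the group means. All 3 correlations exceeded 0.1 for Glutamate_vesicles with Control (0.6, 0.505 and 0.208) and for Memantine, Glutamate_secret and Glutamate_BPC with Glutamate (lowest 0.445), but not for the remaining comparisons. The rule used the same data as the tests, and the block was fitted over all groups at once. Alternatives were the replicate block, DESeq2 1.42.0, the likelihood-ratio test of edgeR that the study used, other scalings and filters, a covariate for ribosomal RNA, fits of the compared groups alone, another criterion, and each library left out in turn.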

Additional observations from a re-analysis of the deposited data

How the results depend on the processing

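By the quasi-likelihood test no member was called in any of the 11 comparisons, and this remained so when any 1 library was left out (range 0 to 0), with RLE factors, without ribosomal RNA rows, without the filter and with the compared groups alone. The last was not run for the test over 6 groups, where it is the fit itself. DESeq2 called 1 member (Nes) in Glutamate, Glutamate_secret and Glutamate_BPC against Control, 2 (Nes and Vim) in Glutamate_vesicles against Control and 1 (Nes) over 6 groups. The likelihood-ratio test and the covariate for ribosomal RNA each called 1 member (Nes) in Glutamate_vesicles against Control and over 6 groups. The criterion of an unadjusted p below 0.05 with a fold above 1.5 counted 1 member (Nes) in Glutamate, Memantine and Glutamate_secret against Control, 2 (Nes and Vim) in Glutamate_vesicles and 3 (Gfap, Vim and Nes) in Glutamate_BPC against Control, 1 (Aldoc) in Glutamate_vesicles against Glutamate and, with p alone, 1 (Nes) over 6 groups. The replicate block called 2 members (Nes and Vim) in Glutamate_vesicles against Control, raised the calls over all genes there from 2 to 538, and changed no other member count. In pairs that share only a number, the block moved all calls from 0 to 166 for Glutamate, 700 for Glutamate_secret and 251 for Glutamate_BPC against Control. Of 20 named fold changes under 8 other settings each, 151 of 160 values kept direction and side of the threshold and 9 passed it. With 1 library left out, 119 of 120 did, and Aqp4 in Glutamate_BPC against Glutamate reversed to 0.24 without Glutamate 2 (range -1.86 to 0.24). Without ribosomal RNA rows, 4 of 108 group means moved by more than 1 SD, as for Nes in Glutamate (989.9 CPM). Library totals, on which CPM rests, are smaller without these rows, and their part in the shifts was not tested. The Nes estimate for Glutamate against Control was between 1.35 and 1.39 under the other settings. The median log2 difference of all genes was 0.11 in Memantine against Control and under 0.1 in size elsewhere. Lcn2, at 6 to 140 counts, is limited by depth, and 3 libraries per group limit all tests.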

Other observations

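Genes of astrocyte fate had mostly lower estimates with vesicles, and likewise in Memantine and Glutamate_BPC. Of 11 tested transcription factors and Notch genes, among them Nfia, Nfib, Id3, Id4, Hes1 and Sox2, 9 had a lower estimate in Glutamate_vesicles than in Control, with a median log2 difference of -0.92. None was called, and 3 had an unadjusted p below 0.05, as did 11.6% of all genes. The summed level of the list was 1579, 465 and 487 CPM in the Control libraries and 531, 485 and 521 CPM with vesicles, so that Control 1, the library with the most ribosomal RNA, was the one Control library above all 3 vesicle libraries. Against Glutamate the median was -0.79, with 10 of 11 negative and none called. In Glutamate against Control it was -0.13. Memantine had 9 of 11 negative against Control (median -0.48) and 9 against Glutamate (-0.55). In Glutamate_BPC 8 were negative against Control (-0.26) and 9 against Glutamate (-0.34). In Glutamate_secret 6 were negative against Control (-0.24) and 5 against Glutamate (0.02). None was called in any of these. Progenitor genes such as Fabp7, Pax6 and Tnc, which are transcribed by radial glia as Nes and Vim are, had medians of 0.57 in Glutamate and 0.46 in Glutamate_vesicles against Control, with none called in either.

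Of 13 tested genes of gp130 and NF-kB signalling, which act upstream of Gfap and Lcn2 in reactive astrocytes, 10 had a higher estimate in Glutamate than in Control, with a median of 0.40 and none called. Socs3, a feedback inhibitor of this signalling, was at 12.9 ± 2.00 CPM (SD, n = 3) in Glutamate, 17.1 ± 10.0 CPM with vesicles and 3.00 ± 2.59 CPM in Control. The cytokine gene Lif was at 9.50 ± 6.09, 11.4 ± 10.3 and 1.15 ± 0.993 CPM in the same groups. With the replicate block, 1 of the 13 genes was called higher in Glutamate_vesicles against Control, where 3.74% of all genes were called.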
